A study of Mus musculus with 16 samples.

Results

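The genes described here are those of the Myc, Max and Mxd network, 10 transcription factor genes chosen by name: Myc, Mycn, Mycl, Max, Mxd1, Mxd4, Mxi1, Mnt, Mlx and Mga. They were found by symbol among the 46078 genes of the count table, and all 10 were present. RNA-Seq had been performed on haematopoietic stem cells (HSCs) of untreated C57/Bl6 mice, sorted in pools of 30 LSK CD48- CD150+ cells. LSK cells lack lineage markers and carry Sca-1 and c-Kit, and the CD48- CD150+ gate is the usual definition of mouse HSCs. The groups were WT endosteal HSCs (4 libraries), WT central HSCs (4 libraries), Gfra2-/- endosteal HSCs (4 libraries) and Gfra2-/- central HSCs (3 libraries). Central cells were flushed out of the long bones, and endosteal cells were those released when the flushed bones were crushed. GFRα2, the product of Gfra2, is a receptor that cholinergic neurons need to survive, and it is missing from the whole animal in Gfra2-/- mice, not from HSCs alone. The comparisons ask whether HSCs near the bone differ from those in the centre of the BM, and whether the loss of GFRα2 changes either population.

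Depth differed between the groups. Reads on genes numbered 4416648 to 14003634 in WT endosteal, 826487 to 3367289 in WT central, 8519094 to 18550008 in Gfra2-/- endosteal and 7649803 to 14716308 in Gfra2-/- central libraries, so a comparison with WT central HSCs is also one between depths. Spike-in RNAs took 0.192% to 7.1% of reads, and 1 library of each group was under 0.5%. Gfra2 had 47 and 9 counts in libraries B and D of the Gfra2-/- endosteal group and at most 4 in each of the other 13. WT libraries are among these 13, so the counts of Gfra2 cannot decide the genotype of a library. Where those in B and D came from was not tested. The genotype is given below as the label states it, and values are also given without B and D. Libraries are lettered A to D within a group, in the order of the table. Genes of HSCs were found in each library, such as Kit (490 to 991 CPM, counts scaled to a library total of 1e6) and Hlf (291 to 622 CPM). Of the progenitor markers, Cd48, which the gate excludes, had a median of 4.38 CPM, Flt3 11.1 CPM and Cd34 327 CPM. Of the 3 endothelial markers, Cdh5 had 0 counts in 15 of 15 libraries, while Emcn and Pecam1 had medians of 74.5 and 36.8 CPM. The 6 granulocyte and monocyte markers summed to 383 to 760 CPM in WT endosteal, 319 to 2433 CPM in WT central, 376 to 560 CPM in Gfra2-/- endosteal and 417 to 1350 CPM in Gfra2-/- central libraries, of which Lyz2 was 311 to 2430 CPM, and Elane had 0 counts in 14 libraries. The 4 B cell markers summed to 1317 CPM in library D of the Gfra2-/- endosteal group and to at most 131 CPM in the other 14. The labels do not say whether libraries of a group came from separate mice, so p-values measure the spread between these samples. In pools of cells, fewer cells that express a gene and less RNA per cell cannot be told apart.

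Proteins of this network share a helix-loop-helix and leucine zipper domain, through which they pair, and the pairs bind the E-box CACGTG. Myc, Mycn and Mycl activate genes for growth and ribosome production when bound to Max, whereas Mxd proteins, Mxi1 and Mnt bind the same partner and the same sites and recruit Sin3 and histone deacetylases, which repress transcription. In HSCs, Myc and Mycn are known to act in part interchangeably, and the balance of Myc activity is known to bear on whether stem cells stay in the niche and on their differentiation.

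The E-box also occurs near the start of some of these genes, and these sequences are printed since they are the letters that the network itself binds. In the RefSeq promoters of GRCm38.p6, 250 bases before to 50 after each start, CACGTG was found in 4 of 11 windows (36.4%), which belong to 9 of the network genes, Myc having no entry in the table. Over 32851 promoters of the same length, 2349 (7.15%) held it. The motif reads the same on both strands. The capitals mark the E-box in 30 bases around it, 5′ to 3′ along the gene:
Mxd4, chr5:34187912-34187941, minus strand: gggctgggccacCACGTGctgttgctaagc
Mnt, chr11:74830789-74830818, plus strand: ccccacccaagcCACGTGtgcgcgcgcggt
Mlx, chr11:101087238-101087267, plus strand: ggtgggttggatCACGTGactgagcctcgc
Max, chr12:76962234-76962263, minus strand: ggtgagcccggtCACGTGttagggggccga
The first base of the motif lay at -219 from the start in Mxd4, -123 in Mnt, -40 in Mlx and -3 in Max. Mycn, Mycl, Mxd1, Mxi1 and Mga had no match in their windows. A match in these letters is a description and was not tested for binding.

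Mycn and Myc had the highest median levels in the network. Per kb of exon, which allows levels of different genes to be set side by side, Mycn had the highest median over the 15 libraries (83.8 CPM per kb, range 30.2 to 245), followed by Myc (52.3, range 6.62 to 126) and Mga (16.4, range 11.6 to 28.2). The medians of Mlx (9.66), Mnt (9.55), Mxd4 (8.004) and Mxi1 (6.96 CPM per kb) lay close together, and those of Mxd1 (3.53) and Max (3.27) were lower. Mycl was nearly absent. Mycn was above Myc in 12 of 15 libraries and Myc was above Mga in 13, whereas the order of Mlx and Mnt held in 8, that of Mnt and Mxd4 in 8 and that of Mxd4 and Mxi1 in 7, so that these neighbours could not be ranked. Mycn held a median of 44.4% of the summed level per kb (21.4% to 63.3%) and Myc 25.5% (3.80% to 46.4%). The order below Myc depended on the length used. With the mean length of protein-coding transcripts in place of all exons joined, Mycn and Myc stayed first and second (106 and 83.9 CPM per kb). Mxd4 (27.0) and Mxi1 (24.1) then came before Mga (21.1). With that length the median share of Mycn fell to 31.1%, and that of Myc was 26.3%. Mycn was then the highest member in 10 libraries, against 12 per kb of exon.

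**Figure D1:**
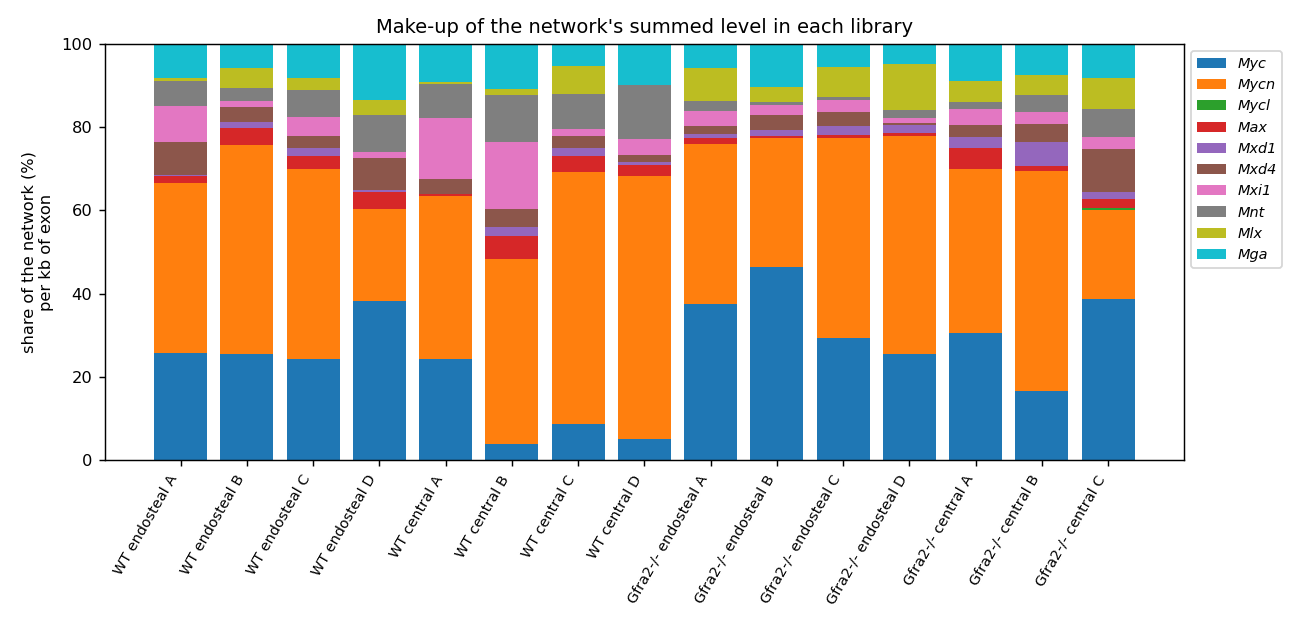
Share of each of the 10 genes in the network's summed level per kb of exon (y axis, percent) in each of the 15 libraries (x axis, by group). Mycn has the largest share in 12 libraries and Myc in 3, and the share of Myc is lowest in WT central libraries B and D.

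Myc (ENSMUSG00000022346; GRCm38 chromosome 15, 61985391 to 61990374, plus strand), which drives growth and cell cycle entry, was the member with the smallest p between the genotypes in endosteal HSCs. It stood at 132, 163, 119 and 142 CPM in WT endosteal libraries A to D and at 131, 17.99, 94.9 and 29.6 CPM in WT central ones. In libraries labelled Gfra2-/- it stood at 219, 342, 198 and 236 CPM in endosteal and at 196, 90.3 and 149 CPM in central HSCs. All 4 endosteal libraries labelled Gfra2-/- were above all WT libraries, and 2 of the 4 WT central libraries were far below the rest. The counts behind these values were 544 to 2448, 58 to 145, 1712 to 6785 and 958 to 3002 in the same order of groups. The low WT central values, of B and D, rest on 58 and 88 counts of Myc. These libraries were deeper (3367289 and 3018939 reads on genes) than A and C of that group (1230252 and 826487).

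Mycn (ENSMUSG00000037169; chromosome 12, 12936093 to 12941914, minus strand), a close relative of Myc with the same partner, had wide ranges within groups. It stood at 253, 392, 272 and 99.6 CPM in WT endosteal and 257, 255, 806 and 452 CPM in WT central libraries. The libraries labelled Gfra2-/- had 272, 276, 389 and 587 CPM in endosteal and 309, 350 and 100.1 CPM in central HSCs. Each pair of groups compared here overlapped. The lowest values, 99.6 and 100.1 CPM, came from WT endosteal D and Gfra2-/- central C, and 2 of the 3 highest, 587 and 452 CPM, from Gfra2-/- endosteal D and WT central D. These 4 are the libraries under 0.5% spike-in reads, and the part of that in the result was not tested. In the other 11 libraries the mean of Mycn differed by -0.32 to 0.04 on the log2 scale in the 4 comparisons. Mycl (ENSMUSG00000028654; chromosome 4, 122995652 to 123002485, plus strand), the remaining Myc gene, had at most 1 count in 14 libraries and 21 counts in Gfra2-/- central C, and it was too low to be tested.

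Max (ENSMUSG00000059436; chromosome 12, 76937269 to 76962201, minus strand), the partner that Myc and Mxd proteins both need, was low. It stood at 11.4, 34.4, 20.6 and 19.1 CPM in WT endosteal and 2.71, 35.0, 57.5 and 20.5 CPM in WT central libraries, where the lowest rests on 3 counts. Endosteal libraries labelled Gfra2-/- had 11.4, 5.54, 8.31 and 7.68 CPM, and central ones 43.5, 8.95 and 11.8 CPM. The endosteal libraries labelled Gfra2-/- were the only group without a value above 12 CPM, and their highest value and the lowest WT endosteal value both rounded to 11.4 CPM.

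Of the repressors, Mnt (ENSMUSG00000000282; chromosome 11, 74830920 to 74845725, plus strand), which is found in most cells and opposes Myc there, separated the groups most clearly. It stood at 51.5, 34.1, 54.5 and 55.7 CPM in WT endosteal and 74.1, 91.5, 160.4 and 129 CPM in WT central libraries. In libraries labelled Gfra2-/- it stood at 23.1, 8.91, 10.05 and 28.4 CPM in endosteal and 19.75, 37.8 and 44.2 CPM in central HSCs. WT central libraries were the highest and did not overlap with any other group, and endosteal libraries labelled Gfra2-/- lay below both WT groups. Each library had at least 82 counts of Mnt, which are reads with PCR copies and not molecules.

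Mxi1 (ENSMUSG00000025025; chromosome 19, 53310518 to 53375810, plus strand), a repressor of the Mxd family, had 199.7, 190.1, 44.1 and 58.8 CPM in WT central libraries and 113, 24.4, 57.1 and 14.0 CPM in WT endosteal ones. In libraries labelled Gfra2-/- it lay between 28.7 and 51.8 CPM in endosteal and between 27.4 and 58.7 CPM in central HSCs. Its 2 highest values were WT central A and B, while C and D of that group were within the range of the others. Mxd4 (ENSMUSG00000037235; chromosome 5, 34173883 to 34187720, minus strand) and Mxd1 (ENSMUSG00000001156; chromosome 6, 86647042 to 86669161, minus strand), both known to rise as cells leave the cycle and differentiate, overlapped in each pair of groups. Mxd4 ranged from 14.1 to 128 CPM and Mxd1 from 1.81 to 81.9 CPM over the 15 libraries. Mxd1 had as few as 10 and 2 counts in libraries A of the WT endosteal and WT central groups. Mxd4 shares 514 exon bases with the antisense gene Gm42846 and Mxi1 194 with Gm10197, both at 0 counts, and reads there cannot be told apart since counting ignored strand.

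Mlx (ENSMUSG00000017801; chromosome 11, 101087277 to 101092207, plus strand), which pairs with Mondo proteins that sense glucose as well as with Mxd proteins, had 3.16, 22.0, 10.3 and 9.63 CPM in WT endosteal and 1.81, 4.96, 53.5 and 0 CPM in WT central libraries. Endosteal libraries labelled Gfra2-/- had 34.6, 19.2, 34.8 and 75.3 CPM, and central ones 24.1, 19.3 and 21.1 CPM. The endosteal libraries labelled Gfra2-/- lay above WT endosteal libraries except that B (19.2 CPM) was under WT endosteal B (22.0 CPM). The highest value, 75.3 CPM, is that of library D, which carries the B cell markers and 9 Gfra2 counts. Mlx shares 385 exon bases with Psmc3ip on the other strand, which had 4051 counts over all libraries. Reads in those bases cannot be told apart since counting ignored strand, and the level of Mlx is less certain for that. Mga (ENSMUSG00000033943; chromosome 2, 119897228 to 119969581, plus strand), a large protein that joins the network to a Polycomb complex, had the narrowest range of the members relative to its level. It ranged from 210.5 to 284 CPM in WT endosteal, 280 to 331 CPM in WT central, 188 to 432 CPM in Gfra2-/- endosteal and 178 to 322 CPM in Gfra2-/- central libraries, and the groups overlapped.

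**Figure D2:**
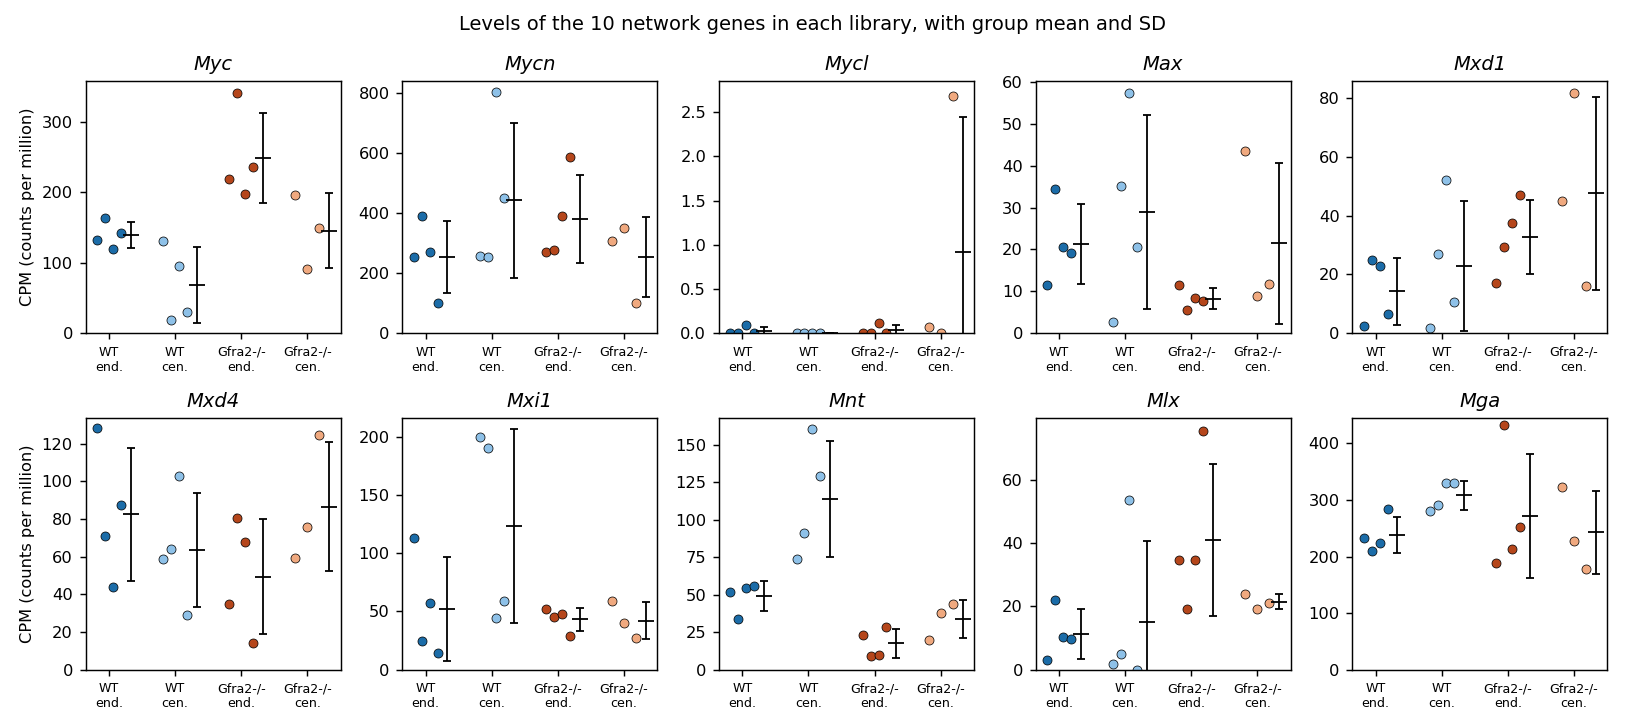
CPM (y axis, linear from 0, a scale per gene) of the 10 genes in each library (points, A to D from left to right), by group (x axis; end., endosteal; cen., central), with the group mean and SD beside them (SD bars end at 0). Myc is highest in endosteal libraries labelled Gfra2-/- (198 to 342 CPM) and Mnt in WT central libraries (74.1 to 160.4 CPM).

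In WT mice, Mnt stood lower in endosteal than in central HSCs and did not pass the FDR. Mnt averaged 49.0 ± 10.05 CPM in endosteal and 114 ± 38.7 CPM in central libraries (SD, 4 libraries each), a log2 fold change of -1.24 ± 0.49 (SE; unadjusted p = 0.0260, FDR = 0.584, edgeR quasi-likelihood test), with 4 of 4 endosteal libraries below 4 of 4 central ones. It was the only one of 9 members tested whose groups did not overlap, against 6.37% of all 11181 genes tested. The other 8 had fold changes from -1.25 (Mxi1) to 1.011 (Myc) on the log2 scale, with unadjusted p of 0.0974 or more. Of the 9 fitted values 2 were above and 7 below 0, while 51.5% of all genes were above, and the median was -0.45 (that of Max) beside 0.03 for all genes. For Mlx and Max the fitted values, -0.40 and -0.45, however had the opposite sign to the difference of mean log2(CPM + 1), 0.92 and 0.05, so no direction can be given for them and the 7 include both. At an FDR of 0.1, 0 of 11181 genes passed in edgeR, 882 (7.89%) had an unadjusted p under 0.05, and DESeq2 called 607, among them Mnt (FDR = 0.05001). With total reads on genes thinned to those of the shallowest library, Mnt stood at -1.44 (unadjusted p = 0.144), and without WT central C, the library with the highest granulocyte and monocyte sum, at -1.02 (unadjusted p = 0.0700).

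Among HSCs labelled Gfra2-/-, Myc was the only member tested whose endosteal and central libraries did not overlap. It averaged 249 ± 64.0 CPM in endosteal (SD, 4 libraries) and 145 ± 53.1 CPM in central HSCs (SD, 3 libraries). Its log2 fold change was 0.78 ± 0.34 (SE; unadjusted p = 0.0461, FDR = 0.999, edgeR), and the groups were separated by the narrow gap between 198 and 196 CPM. That 1 of 9 members did not overlap compares with 7.35% of 13860 genes tested. The other 8 lay between -1.37 (Max) and 0.93 (Mlx), with unadjusted p of 0.154 or more. The median of the 9 was 0.04 beside 0.03 for all genes. In edgeR 0 genes passed the FDR, 664 (4.79%) had an unadjusted p under 0.05 and DESeq2 called 395, Myc not among them (FDR = 0.442). Without endosteal libraries B and D the fold change of Myc was 0.53 (unadjusted p = 0.213). With all 4 groups in one edgeR fit it was 0.78 (unadjusted p = 0.162). With 1 library left out, the unadjusted p of Myc in edgeR lay between 0.0238 and 0.158.

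In central HSCs, libraries labelled Gfra2-/- had lower mean values of Mnt and Mxi1 than WT ones, without passing the FDR. Mnt averaged 33.9 ± 12.7 CPM (SD, 3 libraries) against 114 ± 38.7 CPM (SD, 4 libraries), with a log2 fold change of -1.77 ± 0.59 (SE; unadjusted p = 0.0111, FDR = 0.387, edgeR) and no overlap. That 1 of 9 members did not overlap compares with 12.4% of all 11772 genes tested. Mxi1 averaged 42.0 ± 15.7 against 123 ± 83.1 CPM, a log2 fold change of -1.58 ± 0.67 (SE; unadjusted p = 0.0374, FDR = 0.531), and its groups overlapped. With 1 library left out, Mxi1 lay between -1.90 and -1.25, with an unadjusted p of 0.0117 to 0.112 in edgeR. The remaining 7 ranged from -0.84 (Mycn) to 1.07 (Myc), with unadjusted p of 0.126 or more, and the median of the 9 was -0.37 beside 0.03 for all genes. In edgeR 6 genes (0.051%) passed the FDR, none of them a member, 1028 (8.73%) had an unadjusted p under 0.05, and DESeq2 called 730, with Mnt among them (FDR = 0.0293) and Mxi1 not (FDR = 0.198). With total reads thinned in the same way Mnt stood at -1.64 (unadjusted p = 0.0791) and Mxi1 at -1.39 (unadjusted p = 0.0871).

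In endosteal HSCs, libraries labelled Gfra2-/- had higher Myc and Mlx and lower Mnt and Max than WT ones, again without passing the FDR. Myc averaged 249 ± 64.0 against 139 ± 18.5 CPM (SD, 4 libraries each), a log2 fold change of 0.84 ± 0.26 (SE; unadjusted p = 0.00857, FDR = 0.696, edgeR), and ranked 159 of 12970 genes by p. Mnt averaged 17.6 ± 9.63 against 49.0 ± 10.05 CPM, a log2 fold change of -1.47 ± 0.60 (unadjusted p = 0.0328, FDR = 0.737). Both genes had 4 of 4 libraries on one side of all 4 WT libraries. Max, at 8.23 ± 2.42 against 21.4 ± 9.58 CPM, was also without overlap, by the gap described above (log2 fold change -1.37 ± 0.76, unadjusted p = 0.0995, FDR = 0.765). These 3 of 9 members compare with 6.23% of all genes whose groups did not overlap. Mlx averaged 41.0 ± 24.0 against 11.3 ± 7.84 CPM and overlapped (1.86 ± 0.77, unadjusted p = 0.0357, FDR = 0.737). The other 5 ranged from -0.74 (Mxd4) to 1.20 (Mxd1), with unadjusted p of 0.178 or more. The median of the 9 was 0.20 beside 0.03 for all genes. In edgeR 0 genes passed the FDR, 868 (6.69%) had an unadjusted p under 0.05, and DESeq2 called 531, among them Myc (FDR = 0.0423), Mnt (FDR = 0.0883) and Max (FDR = 0.0742) but not Mlx (FDR = 0.117).

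With total reads thinned to those of the shallowest library, in 1 random draw, the endosteal values were 1.43 for Myc (unadjusted p = 0.00570), -1.01 for Mnt (unadjusted p = 0.440), 1.12 for Mlx (unadjusted p = 0.496) and -0.58 for Max (unadjusted p = 0.686). They include libraries B and D, which hold Gfra2 counts. Without them Myc stood at 0.58 (unadjusted p = 0.0930), Mnt at -1.56 (unadjusted p = 0.0579) and Mlx at 1.602 (unadjusted p = 0.130), each in the same direction and no longer under 0.05. Max stood at -1.125 without libraries B and D (unadjusted p = 0.272, edgeR). The remaining pair still lay above all WT endosteal libraries for Myc (219 and 198 CPM) and below them for Mnt (23.1 and 10.05 CPM). Within the libraries of at least 0.5% spike-in reads, the difference of means was 0.84 for Myc and -1.76 for Mnt on the log2(CPM + 1) scale, and between the single libraries under 0.5% it was 0.73 and -0.95. Without library D, which holds the B cell markers, Myc stood at 0.85 (unadjusted p = 0.0163), Mnt at -1.81 (unadjusted p = 0.0179) and Mlx at 1.37 (unadjusted p = 0.134). With all 4 groups in one edgeR fit, Myc stood at 0.84 (unadjusted p = 0.102) and Mnt at -1.47 (unadjusted p = 0.0117). In that fit Mlx stood at 1.86 and Max at -1.38 (unadjusted p = 0.135 for both).

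**Figure D3:**
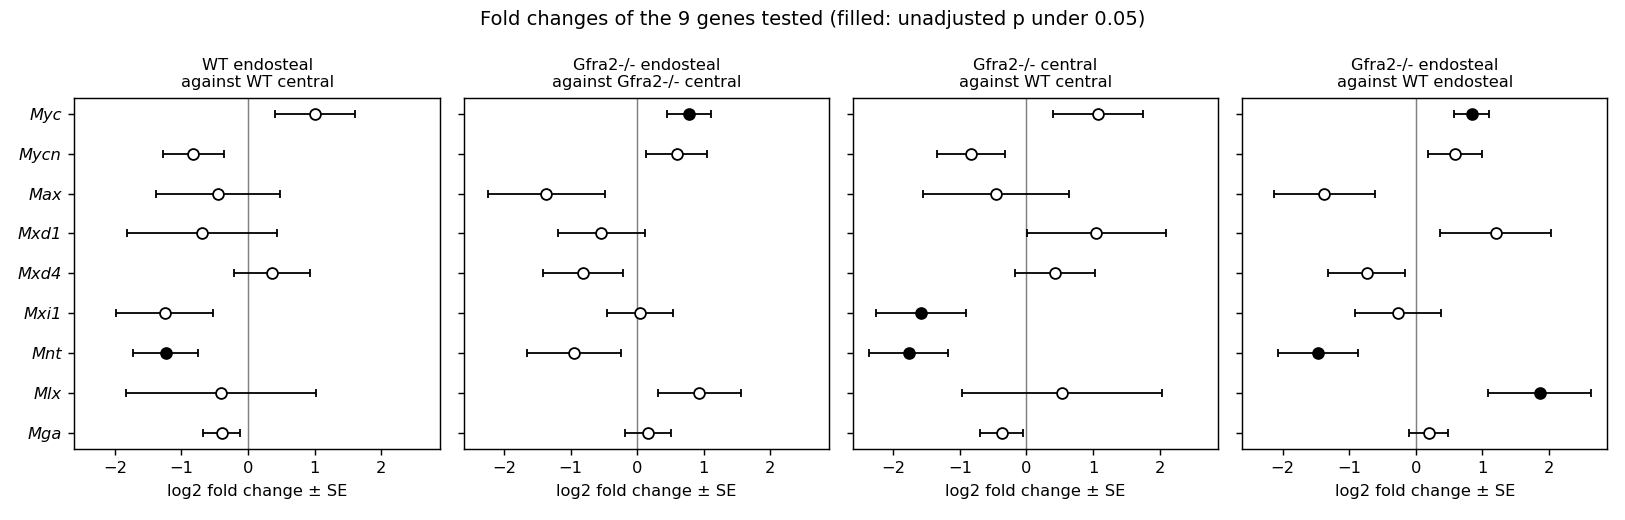
Log2 fold change (x axis, points) with its SE (bars) from edgeR for the 9 members tested (y axis) in the 4 comparisons. Filled points have an unadjusted p under 0.05, and no point passes an FDR of 0.1. Mnt lies below 0 in all 4 panels (-1.77 to -0.95) and Myc above 0 (0.78 to 1.07), and panels share groups of libraries.

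The difference between the genotypes in the compartment effect was tested on its own. For 0 of 9 members was its unadjusted p under 0.05, against 1074 of 15416 genes (6.97%), and 0 genes passed the FDR in edgeR, with 240 called in DESeq2. The smallest p belonged to Mycn, with 1.39 ± 0.70 on the log2 scale (SE; unadjusted p = 0.0632, FDR = 0.713), and this is the gene whose extremes lay in the libraries with few spike-in reads. For Myc the term was -0.27 ± 0.71 and for Mnt 0.27 ± 0.76, so that a difference of the compartment effect between genotypes was not detectable for either.

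Since Myc and Mnt bind the same sites through Max, their ratio within a library was also taken, a pair chosen after their values were seen and therefore given without a test. Per kb of exon, Myc exceeded Mnt 4.37, 8.13, 3.71 and 4.35 times in WT endosteal libraries A to D, and 3.01, 0.335, 1.008 and 0.389 times in WT central ones. In libraries labelled Gfra2-/- the ratio was 16.2, 65.3, 33.5 and 14.2 in endosteal and 16.9, 4.07 and 5.74 in central HSCs. The log2 ratio averaged 2.29 ± 0.50, -0.33 ± 1.46, 4.73 ± 1.02 and 2.88 ± 1.07 (SD) in the same order of groups. WT central libraries were the lowest, endosteal libraries labelled Gfra2-/- were above all WT libraries, and WT endosteal and Gfra2-/- central libraries overlapped. The ratio does not depend on the scaling of libraries. Depth was also lowest in WT central and highest in Gfra2-/- endosteal libraries (medians of 2124596 and 13099824 reads on genes). The part of depth in the ratio was not tested. The highest ratio, 65.3, came from Gfra2-/- endosteal B, which had the most reads on genes (18550008) and holds Gfra2 counts.

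**Figure D4:**
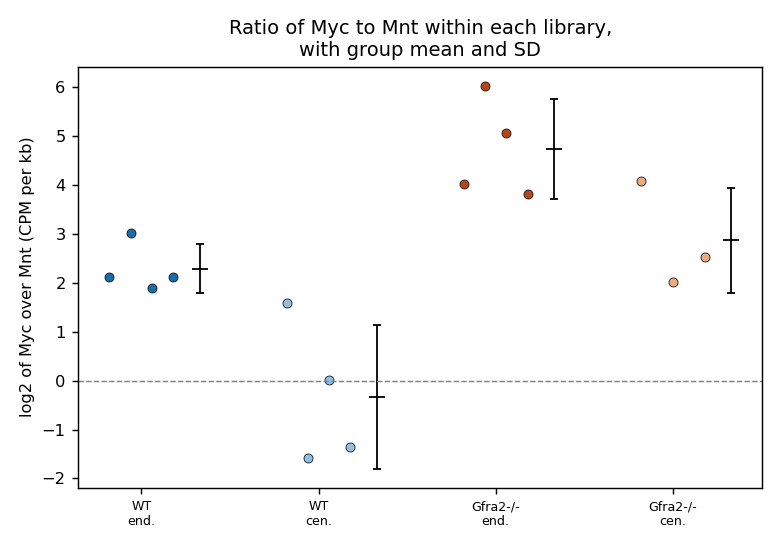
Log2 ratio of Myc to Mnt per kb of exon (y axis; the dashed line marks equal levels) in each library (points) by group (x axis; end., endosteal; cen., central), with the group mean and SD. Values run from -1.58 in WT central B to 6.03 in Gfra2-/- endosteal B.

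Over the 15 libraries Mnt was also the member least like Myc. Pearson's r between the values of log2(CPM + 1) was -0.74 (Spearman's rho -0.85), and Mnt ranked 15370 of 15415 genes in likeness to Myc. Without WT central B and D, the libraries farthest from the median of Myc, r was -0.81. Of the other members, Mlx had r = 0.61, Mxi1 -0.44 and Max -0.40, which were 0.30, -0.12 and -0.30 without the same libraries, while Mycn, Mxd1, Mxd4 and Mga lay between -0.14 and 0.07. The genes most like Myc were Coro1b, which regulates actin branching (r = 0.91), Inafm2 (0.88), Mrpl4, a mitochondrial ribosomal protein (0.87), Klhl15 (0.86) and Gm8806 (0.86). Those most unlike it were Crispld2 (-0.90), the bicarbonate transporter Slc4a4 (-0.90), Gm16238 (-0.89), Gm10784 (-0.88) and Gm22009 (-0.86). Without the same 2 libraries r was 0.56 to 0.70 for the genes most like Myc and -0.65 to -0.38 for those most unlike it. These values describe libraries that share groups and differ in depth, and carry no p.

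The 48 Myc-induced targets, genes of ribosome production, translation, metabolism and the cell cycle that Myc is known to activate, were all tested in each comparison. Between WT compartments 33 were higher and 15 lower in endosteal HSCs, while 51.5% of all genes were higher, and the median log2 ratio was 0.51 beside 0.03. An unadjusted p under 0.05 was found for 10 that were higher and for 0 that were lower, against 4.43% and 3.46% of all genes. Eif5a, a translation factor, was higher by 0.90 ± 0.25 (SE; unadjusted p = 0.00357, FDR = 0.438), with 929 to 1043 CPM in endosteal and 350 to 683 CPM in central libraries, which did not overlap. Nop56, which assembles the machinery that modifies ribosomal RNA, stood at 2.42 ± 0.82 (FDR = 0.488), and Noc4l, a ribosome biogenesis factor, at 1.91 ± 0.67 (FDR = 0.511). Noc4l stood at 1.27 without WT endosteal A (unadjusted p = 0.0953) and at 0.74 with spike-in factors. The median less that of all genes was between 0.28 and 0.66 in 8 other settings and between 0.38 and 0.55 with 1 library left out. The number of higher targets with an unadjusted p under 0.05 was 2 to 12 in those settings, with 5 after thinning. It was 6 to 9 with 1 library left out.

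In HSCs labelled Gfra2-/- the same targets were higher in endosteal libraries for 35 genes and lower for 13, while 51.6% of all genes were higher, with a median of 0.27 beside 0.03. An unadjusted p under 0.05 was found for 6 higher genes and 1 lower gene (2.74% and 2.05% of all genes). Nop56 (1.11 ± 0.35, FDR = 0.896), Eif5a (0.56 ± 0.18, FDR = 0.898) and Srm, which makes spermidine (0.80 ± 0.30, FDR = 0.999), had the smallest p. After thinning Nop56 stood at 0.46 and Srm at 1.57. Without endosteal libraries B and D the median was 0.04 beside -0.04 for all genes, with 3 higher and 0 lower. Over the 9 other settings 0 to 8 were higher and 0 to 1 lower at that p.

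Between the genotypes in endosteal HSCs, where Myc was higher and Mnt lower in each library labelled Gfra2-/-, the targets went both ways. There were 21 higher and 27 lower, while 51.5% of all genes were higher, and the median was -0.17 beside 0.03. An unadjusted p under 0.05 was found for 0 higher and 6 lower targets (3.18% and 3.52% of all genes). The lowest p belonged to Nme1, a nucleotide kinase (-0.99 ± 0.28, unadjusted p = 0.00467, FDR = 0.645), Npm1, the nucleolar protein nucleophosmin (-0.76 ± 0.21, unadjusted p = 0.00468, FDR = 0.645), and Odc1, the first enzyme of polyamine synthesis (-1.62 ± 0.51, unadjusted p = 0.00977, FDR = 0.708). Npm1 had 267 to 412 CPM in libraries labelled Gfra2-/- and 484 to 637 CPM in WT ones, and Odc1 12.8 to 24.4 against 43.8 to 82.1 CPM, both without overlap. After thinning, Odc1 stood at -0.09 (unadjusted p = 0.937). Without libraries B and D the median of the targets was -0.37 beside -0.06, again with 0 higher and 6 lower. The number of lower targets past that p fell to 1 after thinning, 3 with all groups in one fit and 0 with spike-in factors. It was 0 to 7 over the 9 other settings and 4 to 8 with 1 library left out, beside 0 and 0 to 1 higher ones. The median less that of all genes stayed negative, at -0.30 to -0.14 and -0.26 to -0.12. The same WT endosteal libraries stand in this comparison and in that between WT compartments. In central HSCs 22 targets were higher and 26 lower, while 51.4% of all genes were higher, with a median of -0.10 beside 0.03. An unadjusted p under 0.05 was found for 2 higher targets, Nop56 (1.98 ± 0.69, FDR = 0.425) and Mybbp1a, a nucleolar protein (1.14 ± 0.44, FDR = 0.486), and for 4 lower ones, of which Npm1 had the smallest p (-0.80 ± 0.26, FDR = 0.381). The shares of all genes were 4.6% and 4.14%. The sign of that median less the one of all genes changed with the setting (-0.32 to 0.09). In the interaction the median was -0.30 beside -0.12, and 1 target, Cad, the enzyme that starts pyrimidine synthesis, had an unadjusted p under 0.05 (-2.18 ± 0.71, FDR = 0.540). Without Gfra2-/- central C the term for Cad was -1.008 (unadjusted p = 0.109). Npm1 and Eif5a have near-identical pseudogene copies and Nme1 shares its exons with the read-through gene Gm20390, and their counts are less certain for that.

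Fewer genes could be tested among those that Myc is known to repress. Of 12 Myc-repressed targets, 8 to 11 were tested in a comparison, and only Itgb1, an integrin that anchors HSCs in the niche, had an unadjusted p under 0.05, in endosteal against central HSCs labelled Gfra2-/- (0.86 ± 0.29, FDR = 0.922; 260 to 386 against 129 to 224 CPM, without overlap). The medians of this list were 0.23, -0.05, 0.11 and 0.23 in the 4 comparisons, in the order given above, and 0.61 in the interaction.

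Partners and cofactors of the network include enzymes that open chromatin for Myc or mark it for decay. Beside the medians of the lists that follow, the median of all genes was 0.03 in each of the 4 comparisons and -0.12 in the interaction. Of 24 Myc cofactors and turnover genes, 23 or 24 were tested, and their medians were -0.23, 0.15, -0.05 and -0.04, and -0.07 in the interaction. Pim1, a kinase that stabilizes Myc, was lower at an unadjusted p under 0.05 in WT endosteal against WT central HSCs (-1.26 ± 0.54, FDR = 0.594). WT central A and C did not pass the cut-offs on reads and mitochondrial reads, with which that value was -0.84 (unadjusted p = 0.2125, edgeR). Pim1 was also lower at that threshold in central HSCs labelled Gfra2-/- against WT (-1.61 ± 0.58, FDR = 0.444), and these 2 comparisons share the WT central libraries. In central HSCs between the genotypes, Ccnt1, a cyclin of transcription elongation, stood at -1.63 ± 0.55 (FDR = 0.403; -0.75 with spike-in factors). Ruvbl1, a chromatin helicase, stood there at 2.07 ± 0.90 (FDR = 0.545; 1.44 after thinning). Endosteal against central HSCs labelled Gfra2-/- had Ep400, another chromatin helicase, at -0.95 ± 0.26 (FDR = 0.896) and the kinase Cdk9 at -1.28 ± 0.53 (FDR = 0.999; -0.61 without Gfra2-/- central B and -2.52 after thinning). In endosteal HSCs, Gsk3b, the kinase that marks Myc for degradation, stood at 1.23 ± 0.50 (FDR = 0.737) and Usp28, which removes ubiquitin from Myc, at 2.45 ± 1.09 (FDR = 0.740) between the genotypes. Without endosteal libraries B and D these were 0.58 and 0.87, and single libraries carried much of both, with Gsk3b at 0.55 without B and Usp28 at 1.29 without D. The acetyltransferase Kat5 had -4.17 ± 1.94 in the interaction (FDR = 0.704), with at most 1.008 CPM in WT central libraries, and -0.71 (unadjusted p = 0.714) after thinning. Without 1 library it lay between -4.85 and -2.78.

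Of the 12 Mxd and Mnt corepressors, all tested, only Arid4a, a Sin3 subunit, had an unadjusted p under 0.05, in endosteal against central HSCs labelled Gfra2-/- (-0.74 ± 0.32, FDR = 0.999), and the medians were -0.26, -0.03, -0.01, 0.10 and, for the interaction, 0.12. None of the 13 genes of the Mga complex PRC1.6 did in any comparison, and their medians were 0.21, 0.40, -0.24, 0.14 and 0.36. Of the 8 Mlx and Mondo targets, 7 were tested, with medians of -0.35, -0.06, -0.20, 0.04 and 0.21. Hk2, which starts glycolysis, was lower in WT endosteal than in WT central HSCs (-1.94 ± 0.68, unadjusted p = 0.0135, FDR = 0.508) and lower in central HSCs labelled Gfra2-/- than in WT ones (-1.89 ± 0.71, unadjusted p = 0.0212, FDR = 0.470), with 68.5 to 392 CPM in the WT central libraries that both share, and its interaction term was 3.27 ± 1.04 (unadjusted p = 0.00569, FDR = 0.537). Without WT central C these values of Hk2 were -0.95 (unadjusted p = 0.158), -0.90 (unadjusted p = 0.163) and 2.27 (unadjusted p = 0.0253). The extended network (Mxd3, Mlxip, Mlxipl, Tcfl5, Usf1 and Usf2) had 4 genes tested and medians of -0.47, 0.17, -0.66, 0.45 and 0.28. Usf2, which also binds E-boxes, was lower in libraries labelled Gfra2-/- than in WT ones in central (-1.62 ± 0.73, unadjusted p = 0.0460, FDR = 0.559) and in endosteal HSCs (-1.63 ± 0.65, unadjusted p = 0.0308, FDR = 0.737). With the cut-offs on reads and mitochondrial reads the central value was -0.42 (unadjusted p = 0.601), and without WT endosteal A the endosteal one was -0.83 (unadjusted p = 0.177). In these lists 0 genes passed an FDR of 0.1 in edgeR.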

How the data were processed

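The authors aligned the reads with GSNAP to mm10 and counted them per gene with HTSeq (0.5.3p3), ignoring strand. They deposited these raw counts for 46078 genes, together with 92 spike-ins and 5 summary rows. Smart-seq2 carries no molecular identifiers, so counts include PCR copies. Spike-in and summary rows were kept out of library sizes and tests. The summary rows held 54.6% to 80.3% of all reads. Of 16 samples in the labels, 15 libraries entered the comparisons. The column names show neither the group nor a replicate number. Groups were taken from the sample lists in the paper's supplementary data, which name these 15 columns. The 1 column that neither list names was not used.

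The main test was that of edgeR 4.0.16 under R 4.3.3, on the 2 groups compared (filterByExpr, TMM, quasi-likelihood test, Benjamini-Hochberg over all genes tested, FDR 0.1), and the interaction over 15 libraries. The Wald test of DESeq2 1.42.0 was an alternative (the authors took size factors and a 10% FDR from DESeq2), as were other size factors, no filter, total reads thinned to the shallowest library, all groups in one fit, cut-offs of 1500000 reads and 20% mitochondrial reads, and each library left out. The SE is the log2 fold change divided by the square root of F. CPM use TMM factors over all 15 libraries. The script was checked on simulated counts. Positions and exon lengths came from GENCODE M21 (GRCm38), which holds 45229 of the genes, and promoters from RefSeq. The members, lists and tests were chosen with earlier results of these data known, and the lists were compiled from general knowledge. All 10 members are named, with fold changes where the unadjusted p is under 0.05 or the groups do not overlap; of each list, the 3 genes of smallest p are named where that p is under 0.05, except for a result not reported here; and for the pattern of Myc, the 5 genes with the highest and the 5 with the lowest r.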

Additional observations from a re-analysis of the deposited data

Results flagged for a closer look

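Mlx in WT central HSCs was the 1 value of 27 groups of 4 libraries examined (9 members in the 3 groups of that size) that stood far from the rest of its group. Library C had 53.5 CPM, while the other 3 had 0 to 4.96 CPM, and the gap to the nearest library was 0.907 of the range of the group, over Dixon's 95% critical value for 4 samples. Chance marks about 1 in 20 groups this way. Library C is the shallowest of all, with 826487 reads on genes, and its value rests on 40 counts. The group of 3 libraries was not examined.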

How the results depend on the processing

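None of the 8 fold changes of members given above, nor of the 30 of list genes, changed direction in the 323 other values computed or in the 306 with 1 library left out. For spike-in factors this holds for values relative to the median of all genes. Their direction before that step was not counted. With 1 library left out, Mnt lay between -1.39 and -1.02 in WT endosteal against WT central HSCs and between -2.03 and -1.49 in central HSCs between genotypes, and Myc between 0.64 and 0.93 in endosteal HSCs between genotypes.

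Counts of all genes past the FDR depended on the processing. For WT endosteal against WT central HSCs the count was 0, with 607 in DESeq2, 58 without a filter on low counts, 8 after thinning, 22 with all groups in one fit and 0 to 6 with 1 library left out. For endosteal against central HSCs labelled Gfra2-/- it was 0, with 395 in DESeq2 and 15 with spike-in size factors. For central HSCs between genotypes it was 6, with 0 at an FDR of 0.05, 730 in DESeq2, 2 with spike-in factors, 134 without a filter, 10 after thinning, 0 with the read and mitochondrial cut-offs, 1 in libraries of at least 0.5% spike-in reads and 0 to 8 with 1 library left out. For endosteal HSCs between genotypes it was 0, with 531 in DESeq2, 6 with spike-in factors and 1 with all groups in one fit. For the interaction it was 0, with 240 in DESeq2 and 193 with spike-in factors. The cause was not tested. With spike-in factors the median of all genes was 1.58, -0.46, 1.75, -0.28 and -2.18 (log2), in place of 0.03 in the 4 comparisons and -0.12 in the interaction, and values of single genes are given relative to it. No paired analysis was possible because the table's columns are named without replicate numbers. Depth limits what can be seen of Max, Mlx and Mxd1 in WT central libraries, with as few as 3, 0 and 2 counts. The alternatives without the 2 endosteal libraries, with another length and for the target lists were chosen after seeing the data.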
